A study of Saccharomyces cerevisiae with 30 samples.

Results

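The cytosolic ribosome of budding yeast is built from a small (40S) and a large (60S) subunit, and the large subunit carries the peptidyl transferase centre, the exit tunnel and the flexible stalks that handle elongation factors and the leaving tRNA. The 60 genes described here encode proteins of the large subunit. They were chosen by systematic name and run from *RPL1A* (YPL220W) and *RPL1B* (YGL135W) to *RPL30* (YGL030W), with *RPL32* (YBL092W), *RPL37A* (YLR185W), *RPL37B* (YDR500C), *RPL39* (YJL189W) and the stalk genes *RPP0* (YLR340W), *RPP1A* (YDL081C) and *RPP2A* (YOL039W). All 60 names were found among the 7126 genes of the tables. Of them, 48 form 24 pairs of copies (A and B) that make the same or nearly the same protein, 10 are single-copy genes, and *RPP1A* and *RPP2A* are counted apart because their sister genes are not in the set. In growing yeast these genes are transcribed together at high rates through Rap1p and its partners Fhl1p and Ifh1p, and they are turned down in starvation, the condition that also opens meiosis.

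The cells were SK288C diploids, an S288C strain with SK1 alleles at *TAO3* and *MKT1*, taken 5 h after transfer to SPO media, a starvation medium of potassium acetate in which meiosis starts. Both genotypes compared were homozygous for *rme1-S288C*, and they differed at *IME4*, which encodes the mRNA methyltransferase that makes m6A. *IME4*/*IME4* cells have the active enzyme and *ime4-cat*/*ime4-cat* cells a catalytically inactive one. RNA-seq of polysomal RNA, the mRNA that sediments with several ribosomes, was compared between 3 libraries of each genotype. These 6 are the libraries whose title and strain number (that of GBy222 for *IME4*/*IME4*, that of GBy225 for *ime4-cat*/*ime4-cat*) name the same thing. For the other 12 RNA-seq libraries the title disagrees with the strain number or with the letter (p for polysome, t for total RNA) in the library's name. For example, the libraries named GBy225 with t carry titles of wild-type input. These 12, which include strain GBy557 (*rme1-10*), were put in no group and are given by name, one by one. The 12 m6A-seq samples were not used here.

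Over the 18 libraries, the reads counted on genes ranged from 586141 to 6009889. Most entries lay elsewhere, with alignments that were not unique at 57.5% to 94.3% of all entries and reads on no gene at 3.22% to 23.5%. In the 6 libraries compared, a single one of the 60 genes had between 2 and 696 counts, and 10 of the genes had at least 100 counts in every library. Replicates of a genotype differed by more than their counting noise (chi-square over its degrees of freedom between 2.28 and 5.24). The replicates are described as biological, without saying whether each is a separate culture, so p-values measure the spread between these libraries.

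Meiotic genes were the check on the label of meiotic cells. All 10 markers on the list were counted in all 6 libraries, and their summed level was 4737, 4289 and 4925 CPM in *IME4*/*IME4* replicates 1 to 3 and 1804, 1497 and 1631 CPM in *ime4-cat*/*ime4-cat* replicates 1 to 3. All 10 fell in *ime4-cat*/*ime4-cat* cells (median log2 fold change -1.66). The largest drop was that of *SPO11*, which makes the meiotic DNA breaks (-2.25), and the smallest was that of *REC114*, a partner of the same machinery (-0.83). The 2 genotypes therefore differed in meiotic expression as well as in the genes below, and the part of this difference in the values of the 60 genes was not tested. In bulk RNA, fewer cells of one state and less RNA per cell cannot be told apart. The mutation changes the protein of *IME4*, so its mRNA level, which was called neither higher nor lower (log2 fold change -0.51, adjusted p = 0.058 in the edgeR fit), checks nothing about the genotype.

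What the copies share at the level of sequence limits what can be counted for them, because a read that fits both copies is not unique and is lost. The part of this loss in the levels counted was not tested. The window of 30 bases in which the copies differ most within their last coding exon is shown for the pairs whose copies moved most unequally (*RPL1* and *RPL37*) and for *RPL20*, of which both copies rose. Bases that differ between the copies, compared position by position without gaps, are in capitals. The sequences are from RefSeq's R64 assembly (sacCer3), written 5′ to 3′ on the coding strand.
RPL1A, chrXVI:135790-135819, plus strand: atgtcCaagatcacTtcttctcaagtcaga
RPL1B, chrVII:254641-254670, plus strand: atgtcTaagatcacCtcttctcaagtcaga
RPL37A, chrXII:523248-523277, plus strand: acggtttccaaaccggCtctgctTCTAAGG
RPL37B, chrIV:1450209-1450238, minus strand: acggtttccaaaccggTtctgctAAGGCTA
RPL20A, chrXIII:753226-753255, minus strand: ctcCtacaagagaccTtcCacTttctactG
RPL20B, chrXV:900251-900280, minus strand: ctcTtacaagagaccAtcAacCttctactA

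The copies of *RPL1* encode identical proteins of 217 residues, the movable L1 stalk beside the tRNA exit site, and their coding sequences are 99.4% identical with a run of 315 bases without a difference. Compared without gaps, their most divergent 30 bases hold 2 differing positions, while those of *RPL37* hold 8 and those of *RPL20* hold 5. Near their ends both *RPL37* windows hold AAGG at shifted positions, so its 8 is not a count of substitutions. Over the coding sequence of *RPL1A*, 81.0% of all windows of 50 bases occur elsewhere in the genome. The same share was 72.7% for *RPL4A* and *RPL4B*, whose protein reaches into the exit tunnel, 62.3% for *RPL7A* and *RPL7B*, and 60.9% for *RPL11A* and *RPL11B*, whose protein binds the 5S rRNA together with Rpl5p. It was 3.3% for the copies of *RPL37* and 0.0% for every single-copy gene. Identity between the proteins of a pair ran from 84.4% for *RPL22*, with 121 and 122 residues, to full identity for 7 pairs.

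Promoters were read for the motif ACCCNNACA, a core of the binding sequence of Rap1p, on both strands in the 500 bases before each start codon. It was found before 22 of the 60 genes (36.7%), against 5.48% of the 6002 protein-coding genes of the annotation and 4.69% of those outside the cytosolic ribosome. The other large subunit genes had it before 14 of 21 (66.7%) and the small subunit genes before 18 of 57 (31.6%). A match is a run of letters and not a measured site, and a gene without one may bind the factor through other letters. No match was found for *RPL37A*, which had the largest rise, for *RPP0*, or for *RPL10*, the most counted gene per kb. The matches are shown in capitals for both copies of *RPL20*, for *RPL22B* and *RPL1B*, which are among the 5 genes with the largest rise, and for *RPL28*, the second most counted gene per kb of coding sequence.
RPL20A, chrXIII:754580-754609, minus strand: gagacttttaACCCAAACAtaaaatacccc
RPL20B, chrXV:901531-901560, minus strand: gggactgttcACCCGTACAttttacgtttc
RPL22B, chrVI:65158-65187, minus strand: ccatgtcaacACCCGTACAtattcagagat
RPL1B, chrVII:254320-254349, plus strand: acatttttgaACCCATACAtctttcaatat
RPL28, chrVII:310693-310722, plus strand: tacaccagggACCCACACAttaccaaaatc

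The last base of these matches lies 371, 348, 237, 303 and 256 bases before the first base of the start codon, in the order shown. Of the 21 tested genes with a match, 13 rose, with a median log2 fold change of 0.63, and of the 38 without one 18 rose, with a median of 0.55. The difference between these medians was not tested.

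Across the set, levels were higher in polysomal RNA of *ime4-cat*/*ime4-cat* cells. Counts were scaled to a common library size with edgeR's TMM factors and are given as CPM, the counts a gene would have in a library of standard size. Of the 60 genes, 59 had enough counts for the test over all genes, and 31 of them rose at an adjusted p under 0.05 (52.5%), against 455 of all 5493 genes tested (8.28%). None of the 59 fell by edgeR's quasi-likelihood test, none had a lower level at an unadjusted p under 0.05 and none fell by DESeq2's Wald test, whereas 9.38% of all genes tested fell in the edgeR fit. Over all genes, 455 rose and 515 fell, or 346 and 593 without TMM factors. The median log2 fold change over the 59 genes was 0.58, a fold of 1.49, beside -0.01 over all genes tested, and 57 of the 59 values were above 0. For 27 of the 59 genes all 3 *ime4-cat*/*ime4-cat* libraries stood above all 3 *IME4*/*IME4* libraries, which 15.2% of all genes tested did. The genes that rose did so by 1.44-fold to 2.70-fold. Without *IME4*/*IME4* replicate 3 the number that rose was 10 (203 over all genes), without *ime4-cat*/*ime4-cat* replicate 2 it was 16 (375 over all genes) and without *ime4-cat*/*ime4-cat* replicate 3 it was 13 (270 over all genes), with 0 of the set falling in each case. The median was then 0.54, 0.37 and 0.60.

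**Figure D1:**
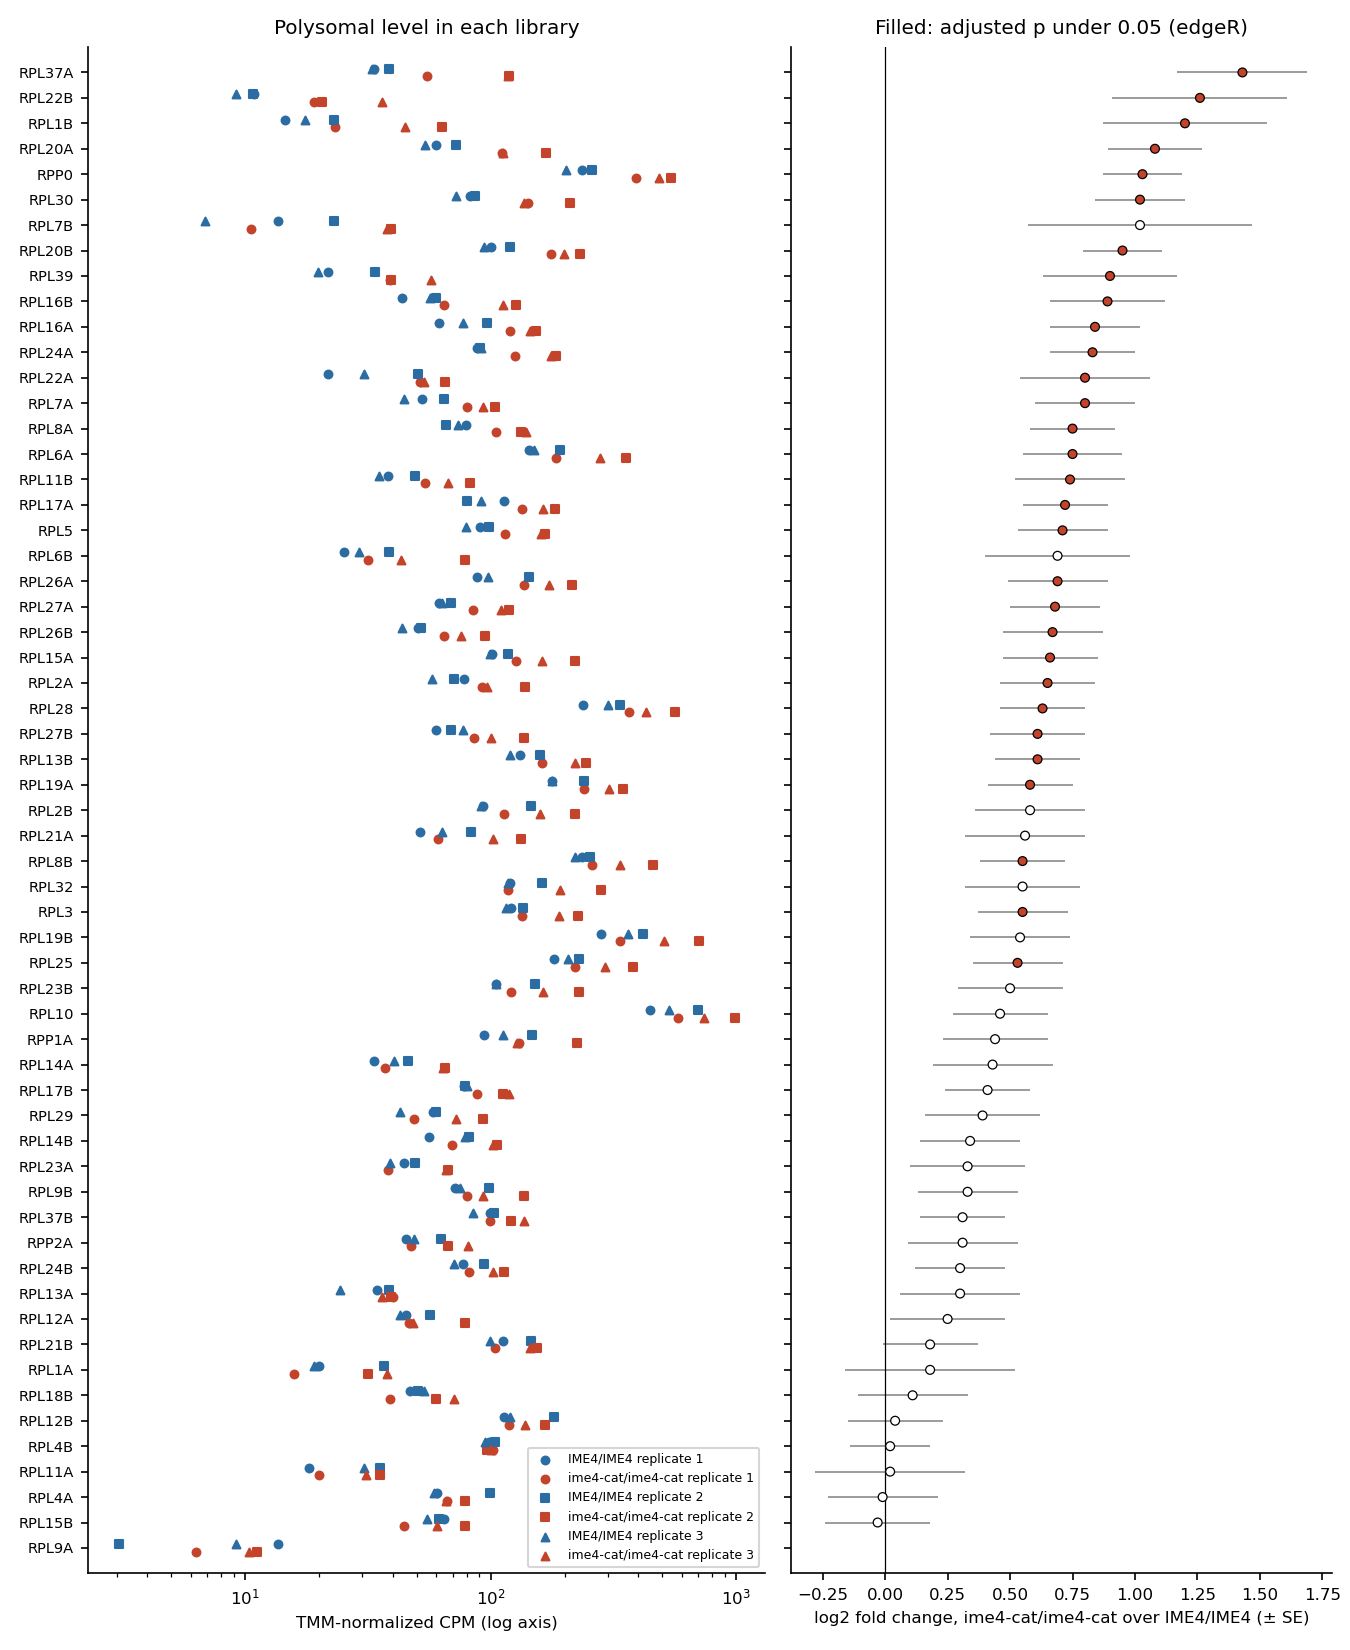
Left, TMM-normalized CPM (log axis) of 59 of the genes in the 3 IME4/IME4 (blue) and 3 ime4-cat/ime4-cat (red) polysomal libraries, with a symbol for each replicate number. Right, log2 fold change with its standard error for the 58 of them that were tested, filled where the adjusted p was under 0.05. The values run from -0.03 for RPL15B to 1.43 for RPL37A, and RPL9A at the bottom was not tested.

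The 6 libraries were not equally far apart. Over the 59 genes, the median deviation of a library from a gene's mean was -0.41, -0.04 and -0.37 on the log2 scale in *IME4*/*IME4* replicates 1, 2 and 3 and -0.08, 0.60 and 0.33 in the *ime4-cat*/*ime4-cat* replicates. *ime4-cat*/*ime4-cat* replicate 2 held the highest value for 47 of the 59 genes, and *IME4*/*IME4* replicates 1 and 3 held the lowest for 26 each. *IME4*/*IME4* replicate 2 and *ime4-cat*/*ime4-cat* replicate 1 had medians that lay next to each other. Within each genotype, replicate 2 had the highest median. Reads counted on genes were 1047377, 680599 and 1262397 in *IME4*/*IME4* replicates 1, 2 and 3. They were 916345, 586141 and 588503 in the *ime4-cat*/*ime4-cat* replicates. Replicate 2 thus also had the fewest reads on genes in each genotype, and the part of depth in these medians was not tested.

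The genes together took a small share of each library. It was 0.562%, 0.655% and 0.574% of gene counts in *IME4*/*IME4* replicates 1, 2 and 3, a mean of 0.597% ± 0.0502 (SD, n = 3). In *ime4-cat*/*ime4-cat* replicates 1, 2 and 3 it was 0.705%, 1.00% and 0.881%, a mean of 0.863% ± 0.149 (SD, n = 3). The ratio of the means was 1.44, and the groups did not overlap. It was 1.33 without *ime4-cat*/*ime4-cat* replicate 2 and 1.58 without replicate 1 of that genotype.

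The stalk is the arm of the large subunit that recruits elongation factors. Rpp0p forms its base and the acidic proteins Rpp1p and Rpp2p hang from it. *RPP0* stood at 235, 258 and 204 CPM in *IME4*/*IME4* cells (here and below in the order of the replicate numbers) and at 391, 541 and 487 CPM in *ime4-cat*/*ime4-cat* cells, from 168 to 370 counts per library. It rose in *ime4-cat*/*ime4-cat* cells with a log2 fold change of 1.03 (SE 0.16, adjusted p = 1e-04 in the edgeR fit), the smallest adjusted p of the set, and the groups were far from overlapping. *RPP1A* stood at 94.2, 147 and 113 CPM against 130, 224 and 128 CPM, and its groups overlapped (log2 fold change 0.44, SE 0.21, adjusted p = 0.16 from the same edgeR test). *RPP2A* stood at 45.3, 63.0 and 48.8 CPM against 47.5, 67.1 and 81.1 CPM (log2 fold change 0.31, SE 0.22, adjusted p = 0.39 from the same edgeR test). The stalk base was thus called higher and the 2 acidic members were not, and whether their folds differ from that of *RPP0* was not tested. *RPL12B*, 1 of the 2 copies that encode the other base protein of the stalk, was among the 5 lowest values, at 113, 181 and 120 CPM against 118, 166 and 138 CPM (log2 fold change 0.04, SE 0.19, adjusted p = 0.93 from edgeR's test).

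Single-copy genes are free of the loss of reads to a second copy, but *RPL10*, *RPL28* and *RPL39* have an entry on the other strand with 0.76, 0.907 and 0.804 counts per count of the gene, which makes their counts uncertain without strand. Of the 10, 7 rose, with a median log2 fold change of 0.59 and a range from 0.39 to 1.03. *RPL30*, whose protein binds its own transcript and blocks its splicing when in excess, stood at 82.4, 86.0 and 72.4 CPM against 143, 211 and 136 CPM. Its log2 fold change was 1.02 (SE 0.18, adjusted p = 0.00055 from edgeR's test), and all *ime4-cat*/*ime4-cat* libraries were above all *IME4*/*IME4* libraries. *RPL5*, whose protein brings the 5S rRNA to the assembling subunit, stood at 90.6, 98.3 and 79.3 CPM against 114, 166 and 161 CPM, again without overlap (log2 fold change 0.71, SE 0.18, adjusted p = 0.0083 from edgeR's test). *RPL3*, whose protein reaches toward the peptidyl transferase centre, stood at 121, 135 and 116 CPM against 134, 227 and 190 CPM. Its log2 fold change was 0.55 (SE 0.18, adjusted p = 0.039 from edgeR's test), and *ime4-cat*/*ime4-cat* replicate 1 lay just below *IME4*/*IME4* replicate 2.

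The proteins of *RPL25* and *RPL39* sit at the exit of the tunnel, where nascent chains emerge. *RPL25* was counted at 180, 229 and 207 CPM against 221, 378 and 293 CPM (log2 fold change 0.53, SE 0.18, adjusted p = 0.042 from edgeR's test), the smallest rise that was called. *RPL39*, with 156 bases of coding sequence the shortest gene of the set, was counted at 21.7, 33.8 and 19.8 CPM against 39.1, 39.2 and 57.0 CPM (log2 fold change 0.90, SE 0.27, adjusted p = 0.024 from edgeR's test). Its groups did not overlap. *RPL28*, in which mutations give resistance to cycloheximide, was counted at 237, 336 and 302 CPM against 367, 565 and 428 CPM, and it rose by 0.63 on the log2 scale (SE 0.17, adjusted p = 0.013 from edgeR's test).

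The other 3 single-copy genes were not called. *RPL10*, whose protein joins late in the cytoplasm and is needed for the subunits to join, was the most counted gene per kb of coding sequence, at 837 CPM per kb in *IME4*/*IME4* cells. It stood at 445, 697 and 530 CPM against 580, 984 and 737 CPM (log2 fold change 0.46, SE 0.19, adjusted p = 0.095 from edgeR's test), and its groups overlapped. *RPL32* stood at 120, 161 and 118 CPM against 117, 281 and 192 CPM (log2 fold change 0.55, SE 0.23, adjusted p = 0.1 from edgeR's test). Here the spread among the 3 *ime4-cat*/*ime4-cat* libraries, an SD of 82.3 CPM, was more than the difference between the means of 133 and 197 CPM. *RPL29*, which yeast can live without, stood at 58.0, 59.9 and 42.7 CPM against 48.6, 93.2 and 72.5 CPM (log2 fold change 0.39, SE 0.23, adjusted p = 0.28 from edgeR's test).

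Among the genes with 2 copies, 24 of the 47 tested rose, with a median log2 fold change of 0.61. By copy, 15 of 23 A copies and 9 of 24 B copies rose, with medians of 0.68 and 0.55. The highest value was that of *RPL37A*, at 33.5, 38.4 and 32.8 CPM against 54.9, 119 and 117 CPM (log2 fold change 1.43, SE 0.26, adjusted p = 0.00058 from edgeR's test). *RPL20A* stood at 59.8, 72.2 and 54.1 CPM against 111, 168 and 112 CPM (log2 fold change 1.08, SE 0.19, adjusted p = 0.00058 from edgeR's test). Neither gene's groups overlapped.

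*RPL22B* and *RPL1B* had the next highest values after *RPL37A*, on few reads. *RPL22B* had 12, 7 and 12 counts in *IME4*/*IME4* cells and 18, 11 and 21 in *ime4-cat*/*ime4-cat* cells, which is 10.9, 10.7 and 9.15 CPM against 19.0, 20.5 and 36.3 CPM (log2 fold change 1.26, SE 0.35, adjusted p = 0.016 from edgeR's test). *RPL1B* had 16, 15 and 23 counts against 22, 34 and 26 (log2 fold change 1.20, SE 0.33, adjusted p = 0.015 from edgeR's test). *RPL7B*, with 15, 15 and 9 counts against 10, 21 and 22, had a log2 fold change of 1.02 that was not called (SE 0.45, adjusted p = 0.13 from edgeR's test). *RPL9A* was left out of the test by the filter on low counts, with 15, 2 and 12 counts against 6, 6 and 6.

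At the other end, the values closest to 0 were those of *RPL15B*, *RPL4A*, *RPL4B*, *RPL11A* and *RPL12B*. *RPL4B* stood at 98.7, 104 and 95.3 CPM against 103, 96.9 and 100 CPM (log2 fold change 0.02, SE 0.16, adjusted p = 0.97 from edgeR's test), and *RPL4A* had a log2 fold change of -0.01 (SE 0.22, adjusted p = 0.98 from edgeR's test). Both copies of *RPL4* have 72.7% of their windows of 50 bases in common with another place in the genome. Of the 8 genes with more than 50% of such windows, 3 rose, with a median log2 fold change of 0.46. Of the 51 tested genes with at most 50%, 28 rose, with a median of 0.58. The difference between these medians was not tested. *RPL15B* stood at 64.3, 61.4 and 54.9 CPM against 44.4, 78.3 and 60.4 CPM (log2 fold change -0.03, SE 0.21, adjusted p = 0.96 from edgeR's test). *RPL11A* stood at 18.1, 35.3 and 30.5 CPM against 20.1, 35.4 and 31.1 CPM (log2 fold change 0.02, SE 0.30, adjusted p = 0.98 from edgeR's test). The genotypes overlapped in *RPL15B*, *RPL4A*, *RPL4B*, *RPL11A* and *RPL12B*.

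The remaining tested genes all belong to pairs. Of them 19 rose, with log2 fold changes from 0.55 to 0.95 (SE 0.16 to 0.26, adjusted p from 0.00037 to 0.037 in the edgeR fit), and 3 of the 19 had overlapping groups. In order of size they were *RPL20B*, *RPL16B*, *RPL16A*, *RPL24A*, *RPL7A*, *RPL22A*, *RPL8A*, *RPL6A*, *RPL11B*, *RPL17A*, *RPL26A*, *RPL27A*, *RPL26B*, *RPL15A*, *RPL2A*, *RPL13B*, *RPL27B*, *RPL19A* and *RPL8B*. *RPL20B*, the highest of these, stood at 101, 120 and 93.8 CPM against 175, 231 and 199 CPM, with no overlap. *RPL24A*, whose protein joins the subunit late, in the cytoplasm, had *IME4*/*IME4* values close together, at 87.9, 90.6 and 91.5 CPM against 126, 185 and 176 CPM. The other 13 were not called, with log2 fold changes from 0.18 for *RPL21B* to 0.69 for *RPL6B* (SE 0.17 to 0.29, adjusted p from 0.074 to 0.57 in the edgeR fit). In 12 of these 13 the groups overlapped, the exception being *RPL17B* at 77.9, 78.3 and 80.0 CPM against 87.7, 112 and 119 CPM.

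The copies of a pair could be set against each other within a library, which needs no scaling. Both copies were called higher for 6 pairs (*RPL8*, *RPL16*, *RPL20*, *RPL22*, *RPL26* and *RPL27*), 1 copy for 12 pairs and neither for 6 (*RPL4*, *RPL9*, *RPL12*, *RPL14*, *RPL21* and *RPL23*). For 21 of the 24 pairs both copies had at least 10 counts in every library, and for these the log2 ratio of copy A to copy B was compared between the genotypes by an exact two-sided permutation test. With 3 libraries against 3 its smallest p is 0.1. For 6 of the 21 pairs, among them *RPL1*, *RPL11*, *RPL15*, *RPL24* and *RPL37*, the ratios of the genotypes did not overlap and p reached this value (adjusted p = 0.35 over the 21 pairs). No pair could have reached 0.05 in this design, so these differences are given as values.

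For *RPL37*, the log2 ratio of A to B was -1.57, -1.42 and -1.37 in *IME4*/*IME4* replicates 1, 2 and 3 and -0.85, -0.02 and -0.22 in the *ime4-cat*/*ime4-cat* replicates, a difference of 1.09 (exact permutation p = 0.1). *RPL37B*, at 99.6, 103 and 84.6 CPM against 99.3, 121 and 136 CPM, was the more counted copy and was not called (log2 fold change 0.31, SE 0.17, adjusted p = 0.25 from edgeR's test). For *RPL1*, the log2 ratio was 0.46, 0.68 and 0.12 against -0.55, -1.0 and -0.24, a difference of -1.02 (exact permutation p = 0.1). It rests on 15 to 25 counts of *RPL1A* per library, and *RPL1A* was not called (log2 fold change 0.18, SE 0.34, adjusted p = 0.78 from edgeR's test).

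In *RPL20* the copies moved alike, with log2 fold changes of 1.08 and 0.95 and a difference in ratio of 0.11. The median size of the difference over the 21 pairs was 0.18 on the log2 scale.

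**Figure D2:**
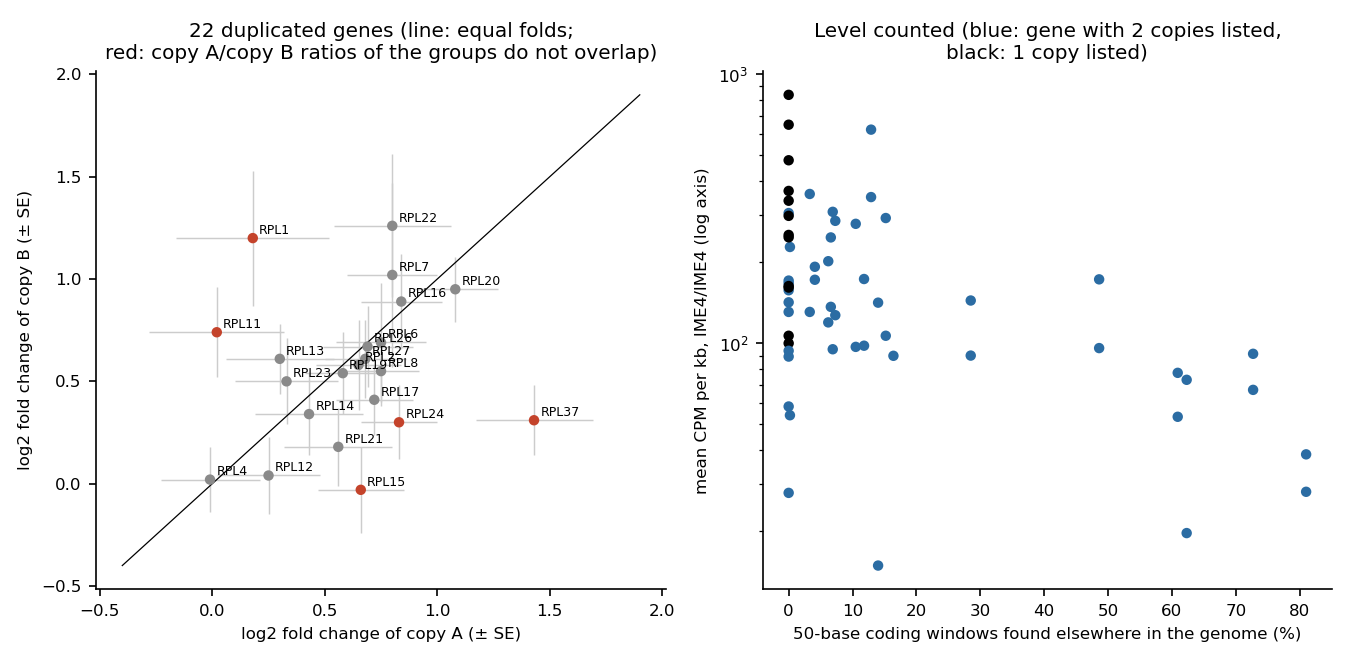
Left, log2 fold change (± SE) of copy A and copy B for 22 duplicated genes with both copies tested, red where the ratio of the copies did not overlap between the genotypes. Right, mean CPM per kb of coding sequence in IME4/IME4 cells (log axis) against the share of 50-base coding windows found elsewhere in the genome, for 59 of the genes. Genes above 60% on the horizontal axis, the copies of RPL1, RPL4, RPL7 and RPL11, lie below 100 CPM per kb.

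The level counted differed widely within the set, in which the share of repeated windows also differs between pairs. Per kb of coding sequence in *IME4*/*IME4* cells, *RPL10* was followed by *RPL28* at 648 CPM per kb, *RPL19B* at 622, *RPL25* at 478 and *RPP1A* at 368. *RPL19B* itself stood at 282, 418 and 364 CPM against 337, 707 and 506 CPM, with overlapping groups (log2 fold change 0.54, SE 0.20, adjusted p = 0.076 from edgeR's test). The lowest were *RPL9A* at 14.9 CPM per kb, *RPL7B* at 19.7, *RPL22B* at 27.8 and *RPL1B* at 28.1. Over the 60 genes the level per kb had a Spearman correlation of -0.40 with the share of repeated windows, given as a description over genes that share the same libraries. The level per kb had a correlation of -0.06 with the log2 fold change over the 59 genes tested, and coding length one of -0.04.

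Introns are more common here than among yeast genes at large, and 36 of the 60 genes have at least 1 within the coding region. Of these, 22 rose, with a median log2 fold change of 0.66, and of the 23 tested genes without one 9 rose, with a median of 0.44. The difference between the medians was not tested, and the files do not separate spliced from unspliced RNA.

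The medians of the rest of the cytosolic ribosome lay near that of the 60 genes. Of the other large subunit genes, 19 of 21 were tested and 9 rose, with a median log2 fold change of 0.56. Their values ran from *RPL35A* at 0.11 (SE 0.27, adjusted p = 0.84 from edgeR's test) to *RPL38* at 0.99 (SE 0.21, adjusted p = 0.0026). Of the small subunit genes, 56 of 57 were tested and 29 rose, with a median of 0.67, from *RPS6A* at 0.15 (SE 0.33, adjusted p = 0.82 from edgeR's test) to *RPS17B* at 1.30 (SE 0.20, adjusted p = 0.00013). None of either list fell by edgeR's or DESeq2's test or had a lower level at an unadjusted p under 0.05.

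Genes of the large subunit's assembly and those of the mitochondrial ribosome gave other values. Of 20 tested genes for assembly factors and dedicated chaperones, 1 rose and 1 fell, with a median of 0.06. *NUG1*, a GTPase of the nuclear precursor, rose (log2 fold change 0.66, SE 0.19, adjusted p = 0.022 from edgeR's test), and *ALB1*, a shuttling factor, fell (log2 fold change -0.93, SE 0.24, adjusted p = 0.011). Of 39 tested genes of the mitochondrial large subunit none was called in either direction by edgeR or DESeq2, with 2 lower and 0 higher at an unadjusted p under 0.05. Their median was -0.13, from *MRPL37* at -0.86 (SE 0.39, adjusted p = 0.14 from edgeR's test) to *MRPL33* at 0.52 (SE 0.39, adjusted p = 0.40).

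**Figure D3:**
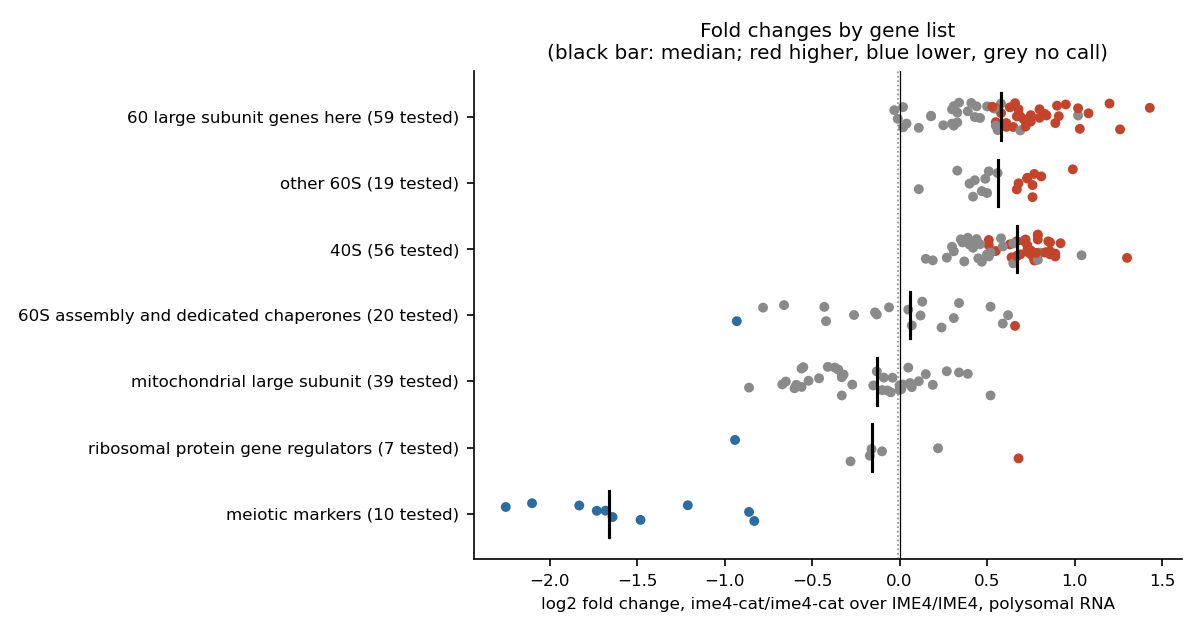
Log2 fold change of each tested gene in polysomal RNA, by list, with the median as a black bar and the median of all genes tested, -0.01, as a dotted line. The 3 lists of the cytosolic ribosome have medians of 0.58, 0.56 and 0.67, assembly factors and the mitochondrial large subunit 0.06 and -0.13, and the 10 meiotic markers -1.66.

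Of the 7 regulators of ribosomal protein genes on the list, 1 fell and 1 rose. *RAP1*, the activator that binds the promoters of these genes, stood at 132, 134 and 124 CPM in *IME4*/*IME4* cells and at 62.3, 67.1 and 74.2 CPM in *ime4-cat*/*ime4-cat* cells, without overlap (log2 fold change -0.94, SE 0.17, adjusted p = 0.00053 from edgeR's test). *CRF1*, a corepressor that competes with Ifh1p for Fhl1p, stood at 159, 140 and 147 CPM against 213, 257 and 252 CPM (log2 fold change 0.68, SE 0.15, adjusted p = 0.0027 from edgeR's test). Their directions are opposite to that of the 60 genes for the activator and the same for the corepressor. The other regulators were not called, with log2 fold changes of -0.28 for *FHL1* (SE 0.21, adjusted p = 0.42 from edgeR's test), -0.16 for its coactivator *IFH1* (SE 0.20, adjusted p = 0.65), -0.10 for *SFP1* (SE 0.25, adjusted p = 0.83), 0.22 for *HMO1* (SE 0.20, adjusted p = 0.51) and -0.17 for *STB3* (SE 0.15, adjusted p = 0.48).

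**Figure D4:**
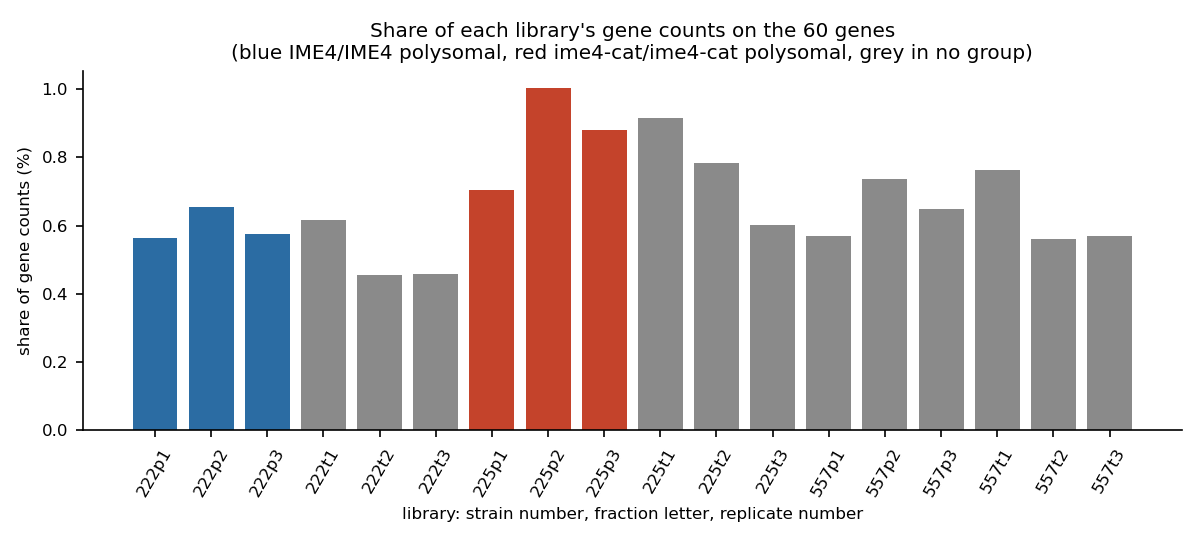
Share of gene counts on the 60 genes in each of the 18 libraries, named by strain number, fraction letter and replicate number. The 3 IME4/IME4 polysomal libraries (blue) are at 0.562% to 0.655%, the 3 ime4-cat/ime4-cat polysomal libraries (red) at 0.705% to 1.00% and the 12 libraries in no group (grey) at 0.456% to 0.916%.

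The 12 libraries in no group were scaled together with the other 6 and are given by name. Their share of gene counts on the 60 genes had a median of 0.609%. The libraries named GBy222 with letter t were at 0.617%, 0.456% and 0.459%, and those named GBy225 with letter t at 0.916%, 0.784% and 0.601%. Those named GBy557 were at 0.569%, 0.737% and 0.650% with letter p and at 0.763%, 0.560% and 0.569% with letter t. Among the 12, library GBy225 t replicate 1 held the highest value for 35 of the 60 genes and GBy225 t replicate 2 for 15, and the lowest values were mostly in GBy222 t replicates 2 and 3, with 18 and 21 genes. *RPP0* ranged from 166 CPM (GBy222 t replicate 3) to 429 CPM (GBy225 t replicate 2), with a median of 265 CPM. *RPL30* ranged from 65.8 CPM (GBy222 t replicate 2) to 240 CPM (GBy225 t replicate 1), with a median of 97.5 CPM. *RPL10* ranged from 412 CPM (GBy222 t replicate 2) to 817 CPM (GBy225 t replicate 2), with a median of 531 CPM.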

How the data were processed

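The 18 RNA-seq libraries were read from the count tables that the authors deposited, whole numbers of reads per gene without normalization, 1 table per library. Per the labels, TopHat2 and sacCer3 were named in the submitters' processing notes, and the counting program and strand setting are not given in the sources used here. Overlapping and antisense genes are therefore uncertain. The closing entries for unassigned reads were left out (shares in the report). Groups were taken from sample labels, and 12 libraries with conflicting names entered no test.

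Polysomal libraries, 3 against 3, were compared with edgeR 4.0.16 in R 4.3.3 (filterByExpr, TMM, glmQLFit, glmQLFTest, genotype as the only term), with Benjamini-Hochberg adjustment over 5493 genes and a threshold of 0.05. The SE is the log2 fold change divided by the square root of F. Copies were compared by an exact permutation test at 10 counts or more. Alternatives included DESeq2 1.42.0. The script was tested on simulated counts with known changes. Counts limit precision, and SDs hold counting and replicate error.

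Sequences and positions are from RefSeq's R64 annotation, which paired 6048 of 7126 names. The members and lists were chosen with earlier results of these data known. The text names the single-copy and stalk genes, the 5 highest and 5 lowest log2 fold changes, the 5 highest levels per kb, genes with under 10 counts in a library, the 3 most unequal pairs, the extremes of each other list, and all regulators. Other genes were named after their values were seen. A gene of the set is counted in the totals but not reported here.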

Additional observations from a re-analysis of the deposited data

Results flagged for a closer look

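Of the 12 libraries in no group, 4 had a share of gene counts on the 60 genes above the highest *IME4*/*IME4* polysomal library, which was at 0.655%. These were library GBy225 t replicate 1 at 0.916%, library GBy225 t replicate 2 at 0.784%, library GBy557 p replicate 2 at 0.737% and library GBy557 t replicate 1 at 0.763%. Their summed level of the 10 meiotic markers was 1808, 1754, 4138 and 4622 CPM in the same order, so the first pair were low in meiotic markers and the second pair were not. Library GBy225 t replicate 3 had 3762 CPM of these markers and a share of 0.601%. No condition was assigned to any of them.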

How the results depend on the processing

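The count of 31 genes that rose, with 455 over all genes, stayed within 1.5 times under the following settings. It was 31 with DESeq2 size factors (489 over all genes) and 29 with no TMM factors (346). It was 31 with TMM factors without ribosomal genes (484), 31 with no filter (474) and 30 with at least 10 counts in every library (414). With the copies summed it was 37, on another footing, because the 24 pairs then enter as sums and 2 genes can share 1 call. With DESeq2's test the count was 23, each among the 31, with 343 over all genes. At an adjusted p under 0.01 it was 12 (214 over all genes). With single libraries left out it ran from 10 to 43, the median log2 fold change from 0.37 to 0.78 and the ratio of shares from 1.33 to 1.58. No gene of the set fell under any of the 15 alternatives. Replicate numbers were not taken as pairs, because the labels tie them to nothing shared and 1 of the same-number correlations of deviations (0.34, 0.29 and -0.0023) was not above 0.1. Those of unlike numbers ran from -0.32 to 0.0158, and 4 of 6 libraries correlated best with their own number. A fit with replicate as a block term called 41 genes higher, the 31 included, with 805 higher and 800 lower over all genes, and *RPL10* (adjusted p = 4.2e-05 in that edgeR fit), *RPL19B* (6.2e-05), *RPL32* (0.0026), *RPP1A* (0.013) and *RPL7B* (0.031) then passed. Of the named genes that rose, *RPP0*, *RPL30*, *RPL37A* and *RPL20A* did so under every alternative fit, and *RPL1B*, *RPL22B*, *RPL3*, *RPL5*, *RPL25*, *RPL28* and *RPL39* missed the threshold under 2 to 6 of them. None of the named genes that rose changed sign. Leaving out a library, chosen after seeing the data for the pairs, kept the difference between copies at 0.92 to 1.33 for *RPL37* and -1.20 to -0.82 for *RPL1*. Of the 24 pairs, 3 had a copy with under 10 counts in a library.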

Other observations

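Some of the 60 genes have, beside their own entry, an entry in the count tables with the neighbouring systematic number on the other strand and no entry in RefSeq. Such entries were found for 8 genes. Summed over the 6 polysomal libraries, YGL102C had 1610 counts beside 1775 of *RPL28*, YLR062C 189 beside 212 of *RPL22A*, YPL197C 75 beside 92 of *RPL7B*, YJL188C 131 beside 163 of *RPL39* and YLR076C 2391 beside 3145 of *RPL10*. The entries beside *RPL12B*, *RPL8B* and *RPP0* had 0.381, 0.165 and 0.108 counts per count of the gene. YGL102C and YLR076C were called higher in *ime4-cat*/*ime4-cat* cells, with log2 fold changes of 0.61 (SE 0.18, adjusted p = 0.026 in the edgeR fit) and 0.62 (SE 0.18, adjusted p = 0.022). Beside them, *RPL28* was at 0.63 (SE 0.17) and called, and *RPL10* at 0.46 (SE 0.19) and not called. Whether the fold of an entry differs from that of its gene was not tested. YJL188C had a log2 fold change of -0.05 (SE 0.36, adjusted p = 0.95 from the same test) beside 0.90 for *RPL39*. No source says whether reads were counted by strand, and without it reads of such neighbours and of the genes cannot be told apart. The paper names the NEBNext Ultra RNA kit for the total and polysomal libraries. Over the 18 libraries there were 1.24 to 1.36 reads on no gene per read on a gene. Entries marked ambiguous made up 0.0132% to 0.0703% of all entries. Whether the neighbouring entries hold reads of the genes themselves was not tested.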
